A study of Mus musculus with 11 samples.

Results

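Fatty acid handling in myeloid cells runs through a short chain of proteins. Lipoprotein lipase (Lpl) frees fatty acids from lipoproteins, the scavenger receptor Cd36 helps them across the membrane, and the fatty acid binding proteins Fabp4 and Fabp5 carry them in the cytosol. Dgat1 and Dgat2 join them to diacylglycerol to make triacylglycerol, Plin2 (perilipin 2) coats the droplets that store it, Pnpla2 (adipose triglyceride lipase) starts its breakdown, and the nuclear receptor Pparg is a lipid-sensing transcription factor known to act on several of these genes in adipocytes and alveolar macrophages.

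These 9 genes were taken by symbol from a table of 21860 genes. The set was put together because Fabp4 and Lpl had moved in opposite directions with Jag1, so it was selected on values of a Jag1 comparison, taken here as the one without FICZ. That comparison is therefore described for all 9 genes with no test. The 11 libraries were bulk RNA-seq of EpCAM+ CD11b-low cells sorted at day 6 from cultures of mouse bone marrow monocytes. GM-CSF (20 ng/ml) was given to every culture. TGFβ (5 ng/ml) and IL-34 (8 µg/ml) were added in 10 of the 11, in a design crossing the Notch ligand Jag1 with FICZ, an agonist of the aryl hydrocarbon receptor Ahr. There were 2 libraries of TGFβ/IL-34 alone (control cultures), 2 with FICZ (FICZ cultures), 3 with Jag1 (Jag1 cultures), 3 with Jag1 and FICZ (Jag1/FICZ cultures) and 1 with GM-CSF and Jag1 but neither TGFβ nor IL-34 (Jag1-only culture).

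Jag1 came from OP9 stromal cells engineered to carry it. The labels describe every sample as a co-culture with OP9, whereas the study's methods culture the groups without Jag1 as monocytes alone, at another plating density. An effect of Jag1, of the OP9 cells and of density cannot be told apart here. Nothing states that replicates came from separate mice, so p-values measure the spread between these libraries. In bulk samples, fewer cells expressing a gene and less RNA per cell cannot be told apart either.

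The libraries held 21310445 to 27845052 normalised counts, and 1 read was worth 0.894 to 1.15 of them. Libraries of 1 group correlated at r = 0.922 to 0.980 over the 13095 genes that passed the filter on low values. The lowest of these was the pair of FICZ libraries. The labels give this pair different experiment codes and flow cells, and place both control libraries on the flow cell of replicate 2. Replicate 2 of that pair correlated at 0.969 and 0.970 with the control libraries. Cd207, the gene of the Langerhans cell protein langerin, was low in both FICZ libraries, at 6.90 and 6.21 normalised counts against 157 and 154 in the control libraries. Epcam, the gene of the sort marker, was at 657 in the Jag1-only culture and between 3952 and 14377 in the other 10 libraries. Since the FICZ libraries stood apart from each other, each result that uses them is given with and without each, as a range where nothing turns on it.

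All 9 genes passed the filter. On a scale of normalised counts per kilobase of the annotated canonical transcript, the levels in control cultures ran from a mean of 5606 for Fabp5 through 1093 for Lpl, 948 for Plin2, 907 for Pnpla2 and 776 for Cd36 to 200 for Dgat1 and 84.4 for Dgat2. Pparg, at 8.23, and Fabp4, at 4.85, were near the bottom of what these libraries could measure. The order changed between cultures, and in the Jag1-only culture Fabp4 reached 1077 on the same scale.

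**Figure D1:**
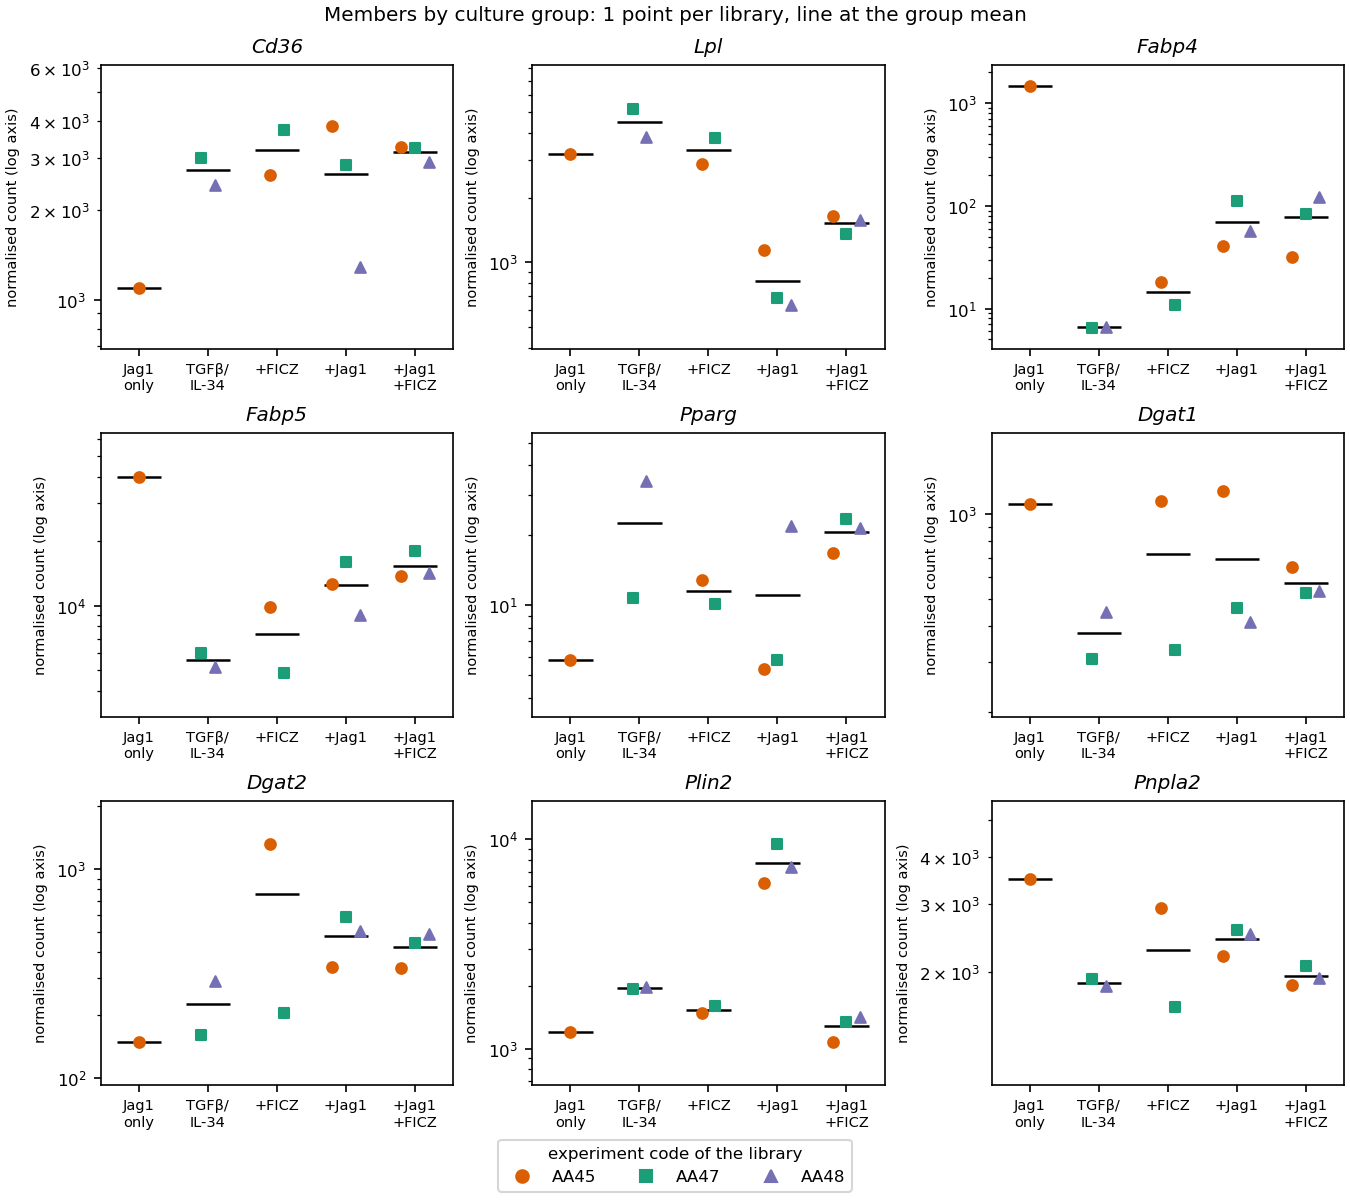
Normalised counts (log axis) of the 9 genes in each of the 11 libraries, by culture group, with a line at the group mean and the colour and shape of a point giving the experiment code in its label. Plin2 is high only in the 3 Jag1 libraries, at 6220 to 9485, and Fabp4 and Fabp5 are highest in the single Jag1-only library.

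Plin2, the droplet coat protein, lies at chr4:86565912-86588459 on the minus strand in GRCm39. It was at 1920 and 1965 normalised counts in control cultures, 1476 and 1598 in FICZ cultures, and 1200 in the Jag1-only culture. In Jag1 cultures it stood at 6220, 9485 and 7414. In Jag1/FICZ cultures it stood at 1077, 1344 and 1421. The 3 Jag1 libraries thus lay above all 8 others, and the 3 Jag1/FICZ libraries lay below both FICZ libraries. The group means were 7706 ± 1652 (SD, n = 3) with Jag1 and 1281 ± 180 (SD, n = 3) with Jag1 and FICZ, a ratio of 6.02.

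The comparison of Jag1/FICZ with Jag1 cultures gives the difference with added FICZ where both groups were grown on OP9 cells carrying Jag1. Plin2 fell by 2.58 on the log2 scale (SE 0.180, limma adjusted p = 2.13e-05). The difference was found within each experiment code, at -2.53, -2.82 and -2.38. Over every alternative fit it stayed between -2.72 and -2.42, with limma adjusted p from 4.89e-07 to 0.000301. The FICZ comparison without Jag1 gave Plin2 a log2 difference of -0.34 (SE 0.221, adjusted p = 0.378, 95% interval -0.83 to 0.15). Both FICZ libraries were below both control libraries, but the change did not pass the test. With a library left out this difference lay between -0.40 and -0.28, and that for Jag1 with FICZ, -0.27 (SE 0.201, limma adjusted p = 0.406), between -0.35 and -0.15.

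The RefSeq promoter table used here (build GRCm38.p6) held 6 starts for 4 of the 9 genes, namely Plin2, Cd36, Pnpla2 and 3 starts of Pparg. Fabp4, Fabp5, Lpl, Dgat1 and Dgat2 had no entry. The 250 bases before the Plin2 start are shown because Plin2 was the gene that changed with FICZ, and those of Cd36 because its level overlapped between all 4 groups that received TGFβ and IL-34. Capitals mark matches to GCGTG, the core that Ahr is known to bind, and to GTGGGAA, a site of the Notch partner Rbpj, on either strand.
Plin2, chr4:86670060-86670309, minus strand: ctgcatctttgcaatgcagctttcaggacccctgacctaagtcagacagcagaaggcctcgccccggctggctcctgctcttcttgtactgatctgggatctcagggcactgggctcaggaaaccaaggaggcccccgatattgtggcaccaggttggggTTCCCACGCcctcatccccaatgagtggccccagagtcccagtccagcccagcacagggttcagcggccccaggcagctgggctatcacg
Cd36, chr5:17835897-17836146, minus strand: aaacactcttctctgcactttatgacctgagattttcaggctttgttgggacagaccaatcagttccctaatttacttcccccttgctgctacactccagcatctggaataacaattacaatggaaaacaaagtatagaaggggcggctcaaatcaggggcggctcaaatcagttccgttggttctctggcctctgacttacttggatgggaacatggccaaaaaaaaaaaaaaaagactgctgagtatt

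The Plin2 window held 1 match of each, on the strand opposite to the gene. They overlap, so that the capitals form a single block, with the Rbpj letters 84 to 90 bases and the Ahr letters 82 to 86 bases before the start. Of 32851 promoter windows of the same length, 28.2% held the Ahr core, 5.42% held the Rbpj letters and 78 (0.237%) held both with an overlap. The Cd36 and Pnpla2 windows held neither. Of the 3 Pparg windows, 1 held 2 Ahr cores, 1 held the Rbpj letters and 1 held neither. The hexamer AGGTCA, which nuclear receptors such as Pparg bind, was in the Plin2 and Cd36 windows, in 2 of the 3 Pparg windows and in 14.0% of all windows. The letters were searched with the results known, and a match describes the sequence and is not a binding site.

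Lpl, the secreted lipase (chr8:69284603-69360100, plus strand), was lowest where Plin2 was highest. Control cultures held 5161 and 3836 normalised counts, FICZ cultures 2857 and 3770, and the Jag1-only culture 3203. Jag1 cultures held 1139, 679 and 635, and Jag1/FICZ cultures 1636, 1360 and 1566. Each of the 6 libraries with both Jag1 and TGFβ/IL-34 was below each of the other 5, and the 3 with FICZ were above the 3 without it. Without FICZ the Jag1 difference, which selected the gene, was -2.49 on the log2 scale (SE 0.264).

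With FICZ in both arms, the Jag1 comparison shares no library with the one without FICZ, and all 9 genes were tested in it. The choice of Fabp4 and Lpl named Jag1 without saying in which cultures, so their p-values here are not independent of that choice. None of the 9 passed, against 264 of 13095 genes tested (2.02%), of which 185 were higher and 79 lower. An unadjusted limma p under 0.05 was reached by 3039 of the 13095 genes tested, so it sets no gene apart. It was reached by 3 of the 9, namely Fabp5 and the chosen genes Lpl and Fabp4. Lpl came closest, at 1521 ± 144 (SD, n = 3) against 3314 ± 646 (SD, n = 2), a log2 difference of -1.11 (SE 0.264, limma adjusted p = 0.0649). It was -0.80 and -1.47 within the 2 experiment codes that held both groups. Without replicate 2 of the FICZ cultures the Lpl difference was -0.91, and without replicate 1 it was -1.31.

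The FICZ comparisons of Lpl share libraries with the one that selected it and are given as values. The log2 difference was 0.94 (SE 0.236) with Jag1 and -0.44 (SE 0.290) without Jag1. In the first all 3 Jag1/FICZ libraries were above all 3 Jag1 libraries, and in the second both FICZ libraries were below both control libraries. The Jag1 difference was 1.38 (SE 0.374) less negative with FICZ than without it.

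**Figure D2:**
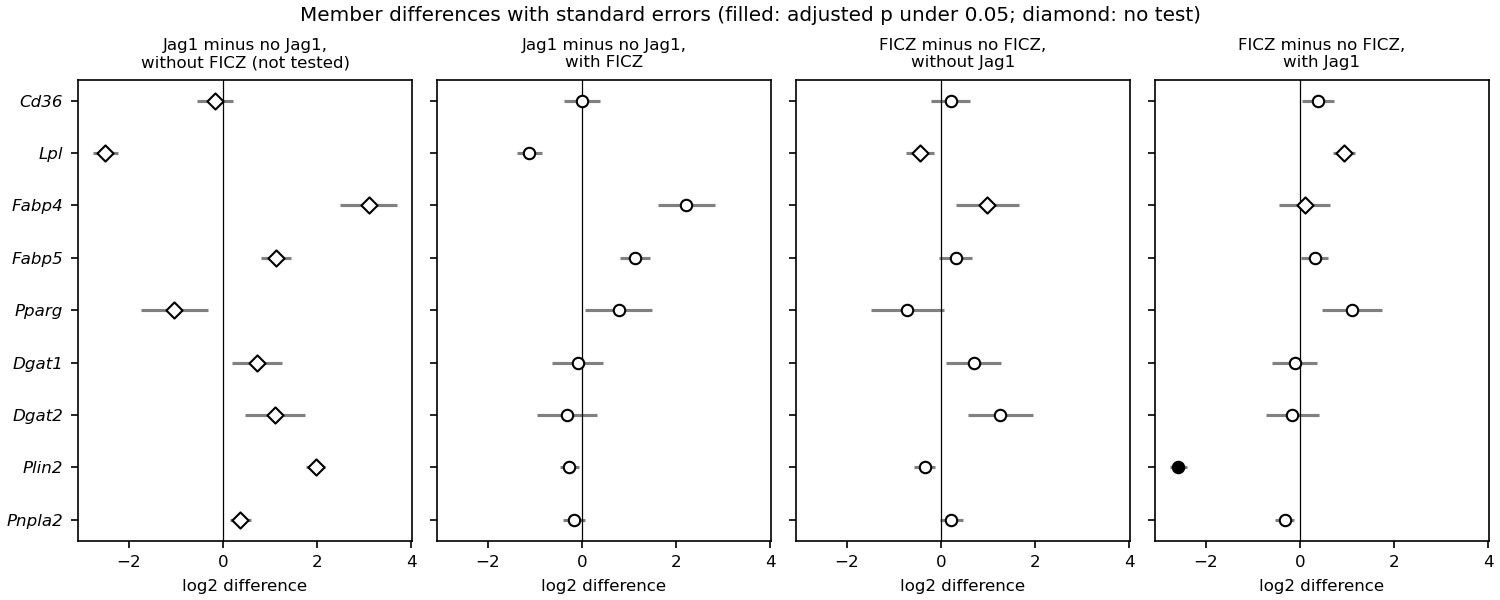
Log2 differences of the 9 genes in 4 comparisons, with bars of 1 standard error from the limma fit, filled circles where the adjusted p was under 0.05 and diamonds where no test was made. The only filled circle is Plin2 with FICZ added to Jag1 cultures, at -2.58, while its difference for FICZ without Jag1 is -0.34.

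Cd36, the membrane receptor, did not separate the cultures. It was at 3005 and 2435 normalised counts in control, 2618 and 3734 in FICZ, 3838, 2846 and 1286 in Jag1, and 3270, 3246 and 2902 in Jag1/FICZ cultures. The groups overlapped in every comparison of these 4, and the spread within the Jag1 group, an SD of 1286, was wider than any difference between the means of these 4 groups. The Jag1-only culture held 1097, below all 10 others. The log2 difference for Jag1 with FICZ was 0.0036 (SE 0.377, limma adjusted p = 0.997). Its 95% interval of -0.84 to 0.84 leaves room for a change in either direction. For FICZ with Jag1 it was 0.38 (SE 0.337, limma adjusted p = 0.520).

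Fabp4, a carrier best known from adipocytes and macrophages, was at 6.51 and 6.67 normalised counts in control cultures, which corresponds to about 7 reads in each library. It was at 18.0 and 10.9 in FICZ cultures, 40.7, 110.8 and 57.2 in Jag1 cultures, and 31.6, 83.7 and 121.0 in Jag1/FICZ cultures. All 6 libraries with Jag1 and TGFβ/IL-34 were above all 4 without Jag1, and the 2 Jag1 groups overlapped. The Jag1-only culture held 1465, which was 12.1 times the highest of the other libraries and 21.1 times the mean of the Jag1 cultures. The log2 difference between Jag1 and control cultures, which selected the gene, was 3.09 (SE 0.606). With FICZ in both arms it was 2.21 (SE 0.606, limma adjusted p = 0.0953), and 0.78 and 2.84 within experiment codes. It was 2.55 (limma adjusted p = 0.159) without FICZ replicate 1 and 1.87 (limma adjusted p = 0.0716) without FICZ replicate 2.

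Fabp5, the related carrier of skin and macrophages, was the most abundant of the set per kilobase in every group. It was at 5981 and 5153 normalised counts in control, 9833 and 4844 in FICZ, 12543, 16045 and 9010 in Jag1 and 13688, 18029 and 14116 in Jag1/FICZ cultures. The Jag1-only culture held 39803, again above all others. The Jag1 libraries were all above the control libraries and the Jag1/FICZ libraries were all above the FICZ libraries. The log2 difference for Jag1 was 1.14 (SE 0.317) without FICZ and, with FICZ, also 1.14 (SE 0.317, limma adjusted p = 0.0993). Within experiment codes the latter was 0.48 and 1.90. Without FICZ replicate 1 the difference was 1.65 and passed (limma adjusted p = 0.0322), and without FICZ replicate 2 it was 0.62 (limma adjusted p = 0.103).

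The comparison of Jag1 and FICZ together against neither called 587 of 13095 genes (4.48%) and 1 of the 7 genes tested. That gene was Fabp5, which rose by 1.45 on the log2 scale (SE 0.317, limma adjusted p = 0.0324), from 5567 ± 586 (SD, n = 2) to 15277 ± 2393 (SD, n = 3). The call was lost whenever any of the 5 libraries compared was left out, with adjusted p between 0.0762 and 0.239 in limma, while the difference stayed between 1.32 and 1.56. It was also lost with the experiment code as a block (limma adjusted p = 0.0561). Plin2 was lower in this comparison, at -0.61 (SE 0.201, limma adjusted p = 0.129).

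Fabp4 and Fabp5 followed each other over the 11 libraries at a Pearson r of 0.937 on the log2 scale, a description that rests in part on the 1 Jag1-only library. Fabp4 and Fabp5 lie on the same chromosome in GRCm39, at chr3:10268785-10273737 on the minus strand and chr3:10077602-10081674 on the plus strand. Copies of Fabp5 that could share its reads are known in the mouse genome, and how the authors' quantification divided such reads is not given in the sources used here.

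OP9 cells are a stromal line able to form adipocytes, which express Fabp4, Lpl, Cd36, Plin2 and Pparg, so markers of both were read beside these genes. The 9 stroma markers summed to 360 to 989 normalised counts in Jag1, 704 to 4307 in Jag1/FICZ and 650 in Jag1-only cultures, against 7.58 to 38.0 without Jag1. Dcn and Lum were at 0 in all 11 libraries. Col1a1 was at 84.1 to 1345 in the 6 libraries with Jag1 and TGFβ/IL-34, 37.4 in the Jag1-only culture and 0 to 3.84 without Jag1. The other stroma markers were split in the Jag1-only culture. Col1a2 (52.9) and Bgn (82.6) were, like Col1a1, below all 3 Jag1 libraries. Col3a1 (46.9), Fbln2 (319), Pdgfra (4.32) and Pdgfrb (107) were above all 3, and Pdgfrb was above every other library. The 7 adipocyte markers summed to 14.4 to 30.2 in all 11 libraries, with Lep at 0 throughout, Adipoq at 0 to 6.33, Cidec at 0 to 0.962 and Cfd at 0 to 0.929. These 4 were thus at or near 0 in all libraries. The library with 1465 counts of Fabp4 had an adipocyte sum of 17.7. It held the highest Adipoq of all libraries, at 6.33, and the lowest Plin4, at 2.08. Fabp4 and the stroma sum had the same order among the 3 Jag1/FICZ libraries but not among the 3 Jag1 libraries, and the Jag1-only culture, with the highest Fabp4, had a stroma sum of 650. The part of stromal or adipocyte RNA in the Fabp4 values was not tested.

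**Figure D3:**
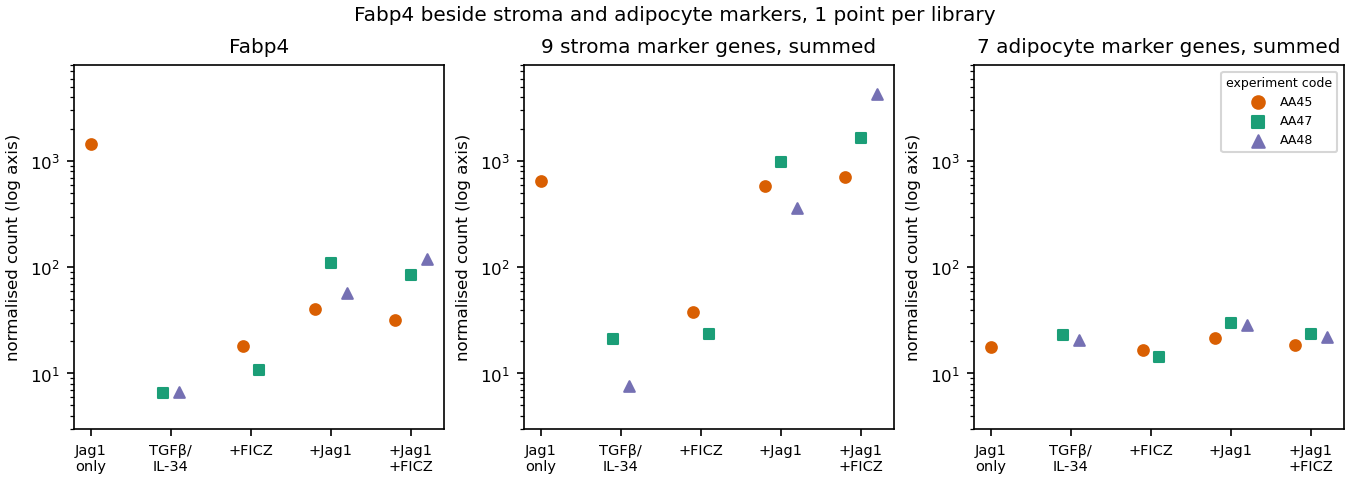
Fabp4, the summed stroma markers and the summed adipocyte markers in each library (normalised counts, log axis), with the colour and shape of a point giving the experiment code. Stroma markers separate the 7 libraries with Jag1 from the 4 without, adipocyte markers lie between 14.4 and 30.2 in all 11, and the library with most Fabp4 does not have most stroma markers.

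Pparg was barely detected. It was at 10.7 and 34.4 normalised counts in control, 12.9 and 10.2 in FICZ, 5.31, 5.84 and 22.0 in Jag1, 16.8, 23.6 and 21.6 in Jag1/FICZ and 5.82 in Jag1-only cultures. Its log2 difference for FICZ with Jag1 was 1.11 (SE 0.637, limma adjusted p = 0.292) with a 95% interval of -0.31 to 2.52, which includes changes in either direction. The 3 libraries of experiment code AA48 held 21.6 to 34.4 and the other 8 held 5.31 to 23.6.

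Of the enzymes that complete triacylglycerol, Dgat1 differed between the experiment codes of the labels. It was at 307 and 449 normalised counts in control, 1107 and 330 in FICZ, 1201, 463 and 414 in Jag1 and 649, 527 and 534 in Jag1/FICZ cultures, with 1079 in the Jag1-only culture. The 4 libraries that the labels place in AA45 held 649 or more, and the other 7 held 534 or less. Of the 13095 genes, 281 (2.15%) separated these 4 libraries from the other 7 in this way, in either direction. The authors' sample sheet also puts control replicate 1 in AA45, at 307, the lowest of all, and by that sheet AA45 ran from 307 to 1201 and did not separate. The 3 Jag1/FICZ libraries also lay above both control libraries. Dgat1 overlaps Hsf1 on the opposite strand, and whether strand was used in counting is not given in the sources used here. Its log2 difference passed the test in none of the 4 comparisons in which it was tested. For FICZ without Jag1 it was 0.70 (SE 0.584, limma adjusted p = 0.482), and 1.57 (limma adjusted p = 0.0430) without FICZ replicate 2.

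Dgat2 was at 161 and 290 normalised counts in control, 340, 589 and 505 in Jag1, and 335, 441 and 489 in Jag1/FICZ cultures. The 2 FICZ libraries held 1317 and 204, so that one was the highest of all 11 and the other lay among the controls. Its log2 difference for FICZ without Jag1 was 1.26 (SE 0.690, limma adjusted p = 0.321). It was 2.60 (limma adjusted p = 0.00125) without replicate 2 and -0.08 (limma adjusted p = 0.989) without replicate 1, so the direction rested on 1 library. For Jag1 with FICZ it was -0.32 (SE 0.630, limma adjusted p = 0.769), against -1.66 (limma adjusted p = 0.00819) without FICZ replicate 2 and 1.02 (limma adjusted p = 0.275) without FICZ replicate 1.

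Pnpla2, the triacylglycerol lipase, varied least, with a ratio of 1.86 between the highest and the lowest group mean. It was at 1907 and 1831 normalised counts in control, 2940 and 1617 in FICZ, 2198, 2569 and 2514 in Jag1, 1850, 2063 and 1925 in Jag1/FICZ and 3485 in Jag1-only cultures. The 3 Jag1/FICZ libraries were below the 3 Jag1 libraries, with a log2 difference of -0.32 (SE 0.203, limma adjusted p = 0.347). The replicate numbers paired these libraries, and once the number was fitted as a block the same difference passed (limma adjusted p = 0.0328 under that replicate block). For FICZ without Jag1, leaving out FICZ replicate 2 turned 0.22 (limma adjusted p = 0.599) into 0.65 (limma adjusted p = 0.00519).

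Counted over the set, FICZ added to Jag1 cultures called Plin2 of the 7 genes tested, against 2312 of 13095 genes (17.7%). FICZ added without Jag1 called none of the 7, against 3 of 13095 genes (0.0229%), while 2284 of all genes had an unadjusted p under 0.05 and no gene of the 7 did. Without replicate 2 of the FICZ cultures the log2 differences of Dgat1, Dgat2 and Pnpla2 were 1.57, 2.60 and 0.65. Any test there assumes that the remaining FICZ library varies like the other groups. By the labels that library differed from both controls in experiment code and flow cell, so FICZ and batch cannot be told apart in that fit. Jag1 without FICZ, the comparison behind the choice, called 864 of 13095 genes (6.6%). In it 6 of the 9 genes did not overlap between groups, 5 higher and Lpl lower, where 46.6% of all genes did not overlap. With FICZ in both arms this held for 5 of the 9, against 35.8% of all genes, and for FICZ with Jag1 for 3 of the 9, against 45.1%. The median log2 difference of the 9 genes was 0.72 for Jag1 without FICZ and -0.09 with FICZ, where the medians of all genes were -0.0041 and 0.05.

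The Jag1 difference changed with FICZ by -2.24 (SE 0.285) for Plin2, -1.42 (SE 0.891) for Dgat2, -0.88 (SE 0.858) for Fabp4 and 1.81 (SE 1.01) for Pparg on the log2 scale. The Dgat2 change depends on which FICZ library is used. Its Jag1 difference with FICZ was -1.66 without FICZ replicate 2 and 1.02 without FICZ replicate 1. For Fabp5 the change was -1.37e-05 (SE 0.448). These values contain the comparison that selected the genes and carry no test.

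Other genes of the same pathways were read from 7 lists with 95 genes, of which 78 passed the filter. FICZ added to Jag1 cultures called 22 of the 78 (28.2%), 9 higher and 13 lower, where 17.7% of all genes were called. Under the replicate block it called 36 (46.2%), where 31.9% of all genes were called. The median log2 difference of the 78 was -0.16, where that of all genes was -0.0083. Jag1 without FICZ called 7 (5 higher, 2 lower), Jag1 with FICZ 3, both together against neither 4 and FICZ without Jag1 none, where 6.6%, 2.02%, 4.48% and 0.0229% of all genes were called. By list, the share called with FICZ in Jag1 cultures ran from 22.2% to 35.7% of 7 to 18 genes, and with so few genes nothing particular to a list is read from these counts. Beside the calls lost with a library left out, given with each gene, other settings took the limma adjusted p for FICZ with Jag1 to 0.0544 for Acsl3, 0.0645 for Plin3, 0.0610 for Ppard and 0.0679 for Acaa2. For Jag1 without FICZ they took it to 0.0952 for Acsl1, 0.0990 for Agpat2 and 0.0520 for Ppargc1b.

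Triacylglycerol synthesis had 3 of 12 genes called with FICZ in Jag1 cultures. Lpin1, which makes diacylglycerol, fell by 1.79 on the log2 scale (SE 0.224, limma adjusted p = 0.000498), from 3880 ± 691 to 1132 ± 270 (SD, n = 3 each). Agpat2, an acyltransferase of the same route, fell by 1.27 (limma adjusted p = 0.00798). Both had risen with Jag1 without FICZ, by 1.58 (limma adjusted p = 0.00466) and 1.16 (limma adjusted p = 0.0455), and the call was lost for Lpin1 without control replicate 2 (limma adjusted p = 0.0822) and for Agpat2 without any of the 5 libraries (limma adjusted p at least 0.0745). Mogat2, a monoacylglycerol acyltransferase, rose from 7.70 to 107 (log2 difference 3.73, limma adjusted p = 0.00146).

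In the list of lipid droplet proteins 2 of 7 genes fell with FICZ in Jag1 cultures and none rose. Plin3, a second droplet coat protein, fell by 0.66 (limma adjusted p = 0.0472) and Hsd17b11, a droplet-bound dehydrogenase, by 0.69 (limma adjusted p = 0.00606). In the lipolysis list 2 of 7 changed, with G0s2, an inhibitor of Pnpla2, up from 4.42 to 71.3 (log2 difference 4.12, limma adjusted p = 0.00608) and the lysosomal lipase Lipa down by 0.81 (limma adjusted p = 0.00845). The Plin3 call was lost in every fit with a library left out (limma adjusted p at least 0.0777).

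Among PPAR and LXR receptors and their partners, 4 of 12 genes changed with FICZ in Jag1 cultures. Rxra, the partner with which PPAR and LXR receptors bind DNA, fell by 2.31 (SE 0.327, limma adjusted p = 0.000965). It stood at 3689, 5779 and 7451 normalised counts in Jag1 and 906, 811 and 1786 in Jag1/FICZ cultures. Nr1h3, the LXR alpha receptor, fell by 2.14 (limma adjusted p = 0.00787) and Ppard, a PPAR family receptor, rose by 0.61 (limma adjusted p = 0.0374). The coactivator gene Ppargc1b fell by 1.70 with Jag1 without FICZ (limma adjusted p = 0.0157). The Ppargc1b call was lost without either control library (limma adjusted p = 0.182 and 0.0910), and the Ppard call was lost without any of the 6 libraries (limma adjusted p at least 0.0664).

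For fatty acid oxidation 4 of 18 genes changed with FICZ in Jag1 cultures. Acadvl and Etfa of mitochondrial oxidation fell by 0.96 and 0.53 (limma adjusted p = 0.00646 and 0.0260), and Acaa2 rose by 0.85 (limma adjusted p = 0.0433). With a library left out the adjusted p in limma reached 0.119 for Etfa, lost without any of the 6 libraries, and 0.133 for Acaa2, lost without any but Jag1 replicate 3.

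Transport and activation of fatty acids had 5 of 14 genes called with FICZ in Jag1 cultures. Slc27a2, a fatty acid transporter with acyl-CoA synthetase activity, rose from 28.6, 0 and 0 to 276, 283 and 252 normalised counts (limma adjusted p = 0.00305). With 2 Jag1 libraries at 0 its fitted log2 difference depends on the pseudocount, at 7.13, 6.45 and 5.09 with 0.5, 1 and 4, and is no measure of fold. Its relative Slc27a1 fell by 1.24 (limma adjusted p = 0.000573). Slc27a3 rose by 1.22 (limma adjusted p = 0.00636) and the acyl-CoA synthetase Acsl3 by 1.09 (limma adjusted p = 0.0331). The scavenger receptor Msr1 fell with Jag1 in each comparison, by 2.22 without FICZ (limma adjusted p = 0.000936), 2.01 with FICZ (limma adjusted p = 0.00772) and 1.81 against neither (limma adjusted p = 0.00549). The call with FICZ was lost in other settings, where the limma adjusted p reached 0.569. Acsl1 rose by 0.76 with Jag1 without FICZ (limma adjusted p = 0.0423). With a library left out the Acsl1 call was always lost (limma adjusted p 0.0856 to 0.400), the Acsl3 call was lost without any but Jag1 replicate 2 (up to 0.123), and the Msr1 call against neither was lost without either control library (limma adjusted p = 0.0795 and 0.0639).

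Of 8 partners and regulators of Lpl, 2 rose with FICZ in Jag1 cultures, both apolipoproteins. Apoe rose from 271 ± 236 to 2135 ± 624 (SD, n = 3 each; log2 difference 3.28, limma adjusted p = 0.00461). Apoc2, the cofactor that Lpl needs, rose from 30.3 to 251 (log2 difference 3.17, limma adjusted p = 0.00606). Angptl2 of the angiopoietin-like family was higher with Jag1 when FICZ was present (log2 difference 3.73, limma adjusted p = 0.0269), a call lost without any of the 3 Jag1/FICZ libraries (limma adjusted p 0.0543 to 0.0896) and in other settings (limma adjusted p up to 0.689).

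**Figure D4:**
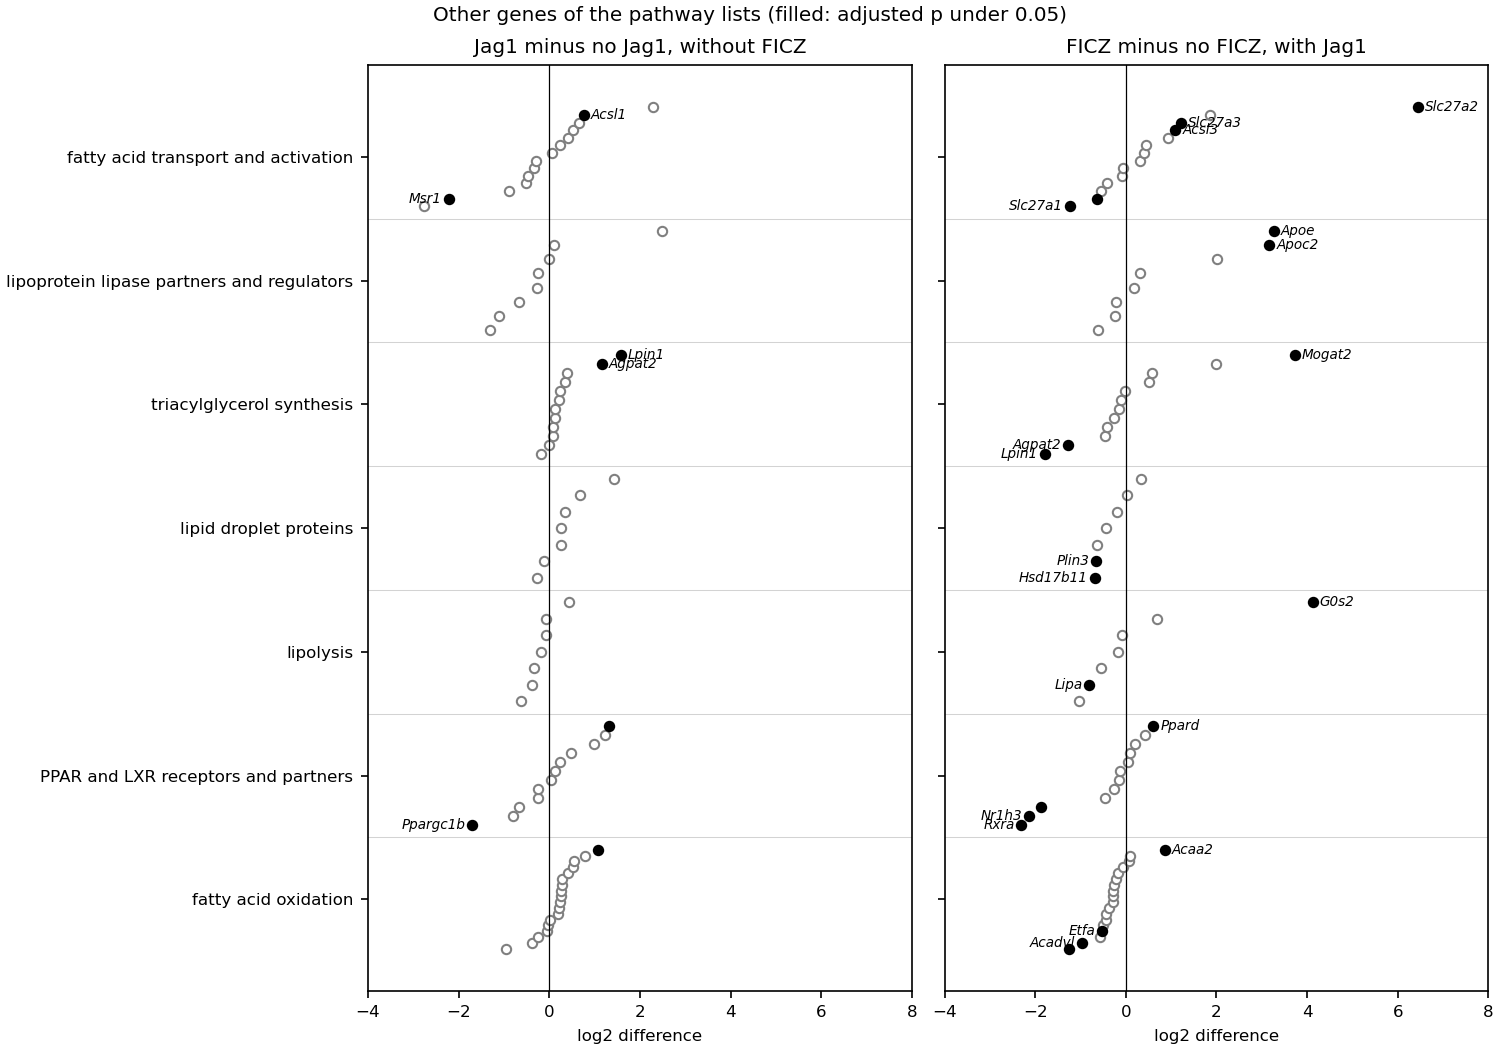
Log2 differences of the 78 other pathway genes by list, for Jag1 without FICZ and for FICZ with Jag1, with filled points where the limma adjusted p was under 0.05. Lpin1 and Agpat2 lie right of 0 in the first panel and left of 0 in the second, 2 comparisons that share the 3 Jag1 libraries.

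Markers of other cells moved in the same comparison. The 4 granulocyte progenitor markers summed to 49.3 to 254 normalised counts in Jag1 and 3767 to 6395 in Jag1/FICZ cultures, and 3 of them rose. The 5 mast cell markers summed to 1132 to 2434 and 4503 to 6853, and 3 rose, with Fcer1a at 0 in both groups. The 8 markers of the sorted cells summed to 755340 to 940365 and 341064 to 443349, mostly Cd74 and H2-Ab1, and 3 fell. Epcam overlapped between the groups, at 7569 to 14377 in Jag1 and 6086 to 9133 in Jag1/FICZ cultures. Cd207 was lower with FICZ, at 1366 to 1784 against 6.29 to 132, and Ptprc was higher, at 3482 to 4750 against 5669 to 6334. The 7 alveolar macrophage markers summed to 129 to 247 in Jag1 and 862 to 1178 in Jag1/FICZ cultures, against 1818 to 3632 in control cultures, and 1 of the 5 tested rose. Most of that sum's rise was Siglecf, at 18.8 to 24.3 in Jag1 and 530 to 666 in Jag1/FICZ cultures. Chil3 and Ear2 overlapped between these 2 groups, and Marco, Ear1 and Krt79 were at 6.12 or less in both. The 9 stroma markers, at 360 to 989 and 704 to 4307, had 1 of 7 tested rise. Whether these shifts take part in the Plin2 and pathway values was not tested.

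Genes whose pattern over the 11 libraries was nearest to a member were ranked by Pearson r on the log2 scale. For Plin2 they were Dnmt3c (0.979), Klk1b3 (0.972) and Siglech (0.971), and for Lpl they were Acod1 (0.943), Slc8b1 (0.908) and Msr1 (0.907). For Fabp4 they were F13a1 (0.977), Sesn2 (0.963) and Rcsd1 (0.960), and for Fabp5 Sesn2 (0.961), Ndrg1 (0.958) and Rab26 (0.951). Cd36 was nearest to Npff (0.941), Dgat1 to Irgc1 (0.938), Dgat2 to H3f3b (0.965) and Pparg to H1f3 (0.865). With 13095 genes and 11 libraries in 5 groups, a high r is easily reached, and these are descriptions only.

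In the Jag1-only culture 3 of the 9 genes (Fabp4, Fabp5 and Pnpla2) were above all other libraries and 2 (Cd36 and Dgat2) were below them. Of all 13095 genes, 38.2% lay outside the range of the other 10 libraries there. Being 1 library, it allows no test.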

How the data were processed

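Sorted cells were sequenced by the authors, who quantified transcripts with salmon, summarised them per gene with tximport and normalised them with DESeq2 on GRCm39 (versions are not given in the sources used here). The deposited values are thus normalised counts, a signal and not raw counts, with 21860 genes in 11 libraries. Whole reads could not be recovered over all genes (52.4 to 58.1% of low values were whole multiples of 1 read within 0.1 read), so no count model was used. Totals of normalised counts per library ran from 21310445 to 27845052, and low genes are the least precise.

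Values were tested as log2(value + 1) in limma 3.58.1 (R 4.3.3, eBayes with trend, two-sided, 6 residual degrees of freedom) with 1 mean per group, on 13095 genes with a value of 10 or more in at least 2 libraries. Log2 differences of low genes depend on this pseudocount and mostly understate the change, except where a library is at 0. P-values were Benjamini-Hochberg adjusted over all genes of a comparison, with a threshold of 0.05. The fit was tested on simulated data. Folds and ratios are of group means of the deposited values.

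The members and lists were chosen with earlier results of these data known. Named genes were the 9 members, up to 4 called genes with the largest difference per list and comparison, and the genes most correlated with each member whose group means differed at least 2-fold. Some genes that this rule names are counted but not reported here. Pairing was checked by correlating deviations of same-numbered libraries from their group means. For Jag1/FICZ against Jag1 these were 0.153, 0.122 and 0.166, with the same experiment codes. For the other comparisons all were under 0.1. In those with control cultures the same-numbered libraries had different experiment codes by the labels. Those values therefore cannot show whether libraries of one experiment were paired. The authors' sample sheet gives another experiment code than the label for 1 control library.

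Alternatives were quantile normalisation, pseudocounts of 0.5 and 4, no filter, only the groups compared, array weights, the replicate number or the experiment code as a block, and each replicate left out. A replicate block with all groups, the authors' experiment code and the flow cell as blocks were added after seeing the data.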

Additional observations from a re-analysis of the deposited data

Results flagged for a closer look

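Plin2 was picked out because its Jag1 difference had opposite signs without and with FICZ in every library. It was 1.97 on the log2 scale without FICZ, where all 3 Jag1 libraries were above both control libraries, and -0.27 with FICZ, where all 3 Jag1/FICZ libraries were below both FICZ libraries. Lpl was picked out for FICZ, with -0.44 without Jag1, where both FICZ libraries were below both controls, and 0.94 with Jag1, where all 3 libraries with FICZ were above the 3 without it. Neither difference between the effects was tested, since both contain the comparison that selected the genes.

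The Jag1-only culture, which enters no comparison, held 1465 normalised counts of Fabp4, 39803 of Fabp5 and 3485 of Pnpla2, each above every other library. It is 1 library and the values have no replicate check.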

How the results depend on the processing

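Plin2 fell with FICZ in Jag1 cultures in every fit run, and no other member was called in all fits of a comparison in which it was tested. For FICZ with Jag1, 2 members were called under array weights and 2 under the replicate block (Plin2 and Pnpla2), with 35 and 36 other pathway genes. In comparisons with control cultures the replicate block joined libraries of different experiment codes by the labels, and left 1 residual degree of freedom. Counts and differences under it there are read with that limit. The replicate block for Jag1 with FICZ also left 1. For Jag1 and FICZ against neither, members called were 3 under array weights and 3 under the replicate block, 2 with only the groups compared, and 0 with no filter, either experiment code block or the flow cell block, and 0 to 0 with each library left out. Other pathway genes called there were 34 under array weights, 28 with only the groups compared, 25 under the replicate block, 8 under the block with all groups, 7 with quantile normalisation and 0 to 3 with a library left out. For Jag1 with FICZ, 0 to 3 members and 1 to 33 other pathway genes were called with a library left out, the upper values without FICZ replicate 2. The other pathway genes called were 0 under array weights, the replicate block or only the groups compared, and 1 with no filter, either experiment code block or the block with all groups. For FICZ without Jag1, 0 to 3 members and 0 to 35 other pathway genes were called with a library left out, again highest without FICZ replicate 2. For Jag1 without FICZ, 23 other pathway genes were called under array weights and 1 to 6 with a library left out. The cause of these shifts was not tested.

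Counts over all genes moved likewise. For Jag1 with FICZ 264 became 0 under array weights or with only the groups compared, 6 under the replicate block, and 54 to 5820 with a library left out. For FICZ with Jag1 2312 became 4123, 3598 and 4171 under array weights, only the groups compared and the replicate block, and 1387 to 1821 with a library left out. For both against neither 587 became 3558, 2807 and 2632 under the same 3 settings and 35 to 308 with a library left out. For FICZ without Jag1 3 became 0 to 5 in the fits with all libraries and 0 to 5718 with one left out, and for Jag1 without FICZ 864 became 2627 under array weights and 195 to 714 with one left out.

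Of 720 recomputed member differences, 27 of tested ones changed sign, none of a called gene. Untested, Cd36 for Jag1 without FICZ went from -0.16 to 0.29 under the replicate block. For Jag1 with FICZ, Cd36 was -0.024 under the flow cell block and -0.25 to 0.26 with a library left out, Dgat1 0.032, 0.061 and 0.072 under the experiment code, flow cell and all-group replicate blocks and -0.96 to 0.78, Dgat2 -1.66 to 1.02 and Pnpla2 -0.60 to 0.27. For FICZ with Jag1, Dgat1 was 0.072 under array weights and -0.40 to 0.37 with a library left out, Cd36 -0.076 to 0.71 and Dgat2 -0.39 to 0.0064. For FICZ without Jag1, Cd36 was -0.12 and -0.13 under the 2 experiment code blocks and -0.047 to 0.46 with a library left out, Fabp5 -0.20 to 0.82, Pparg -1.50 to 0.087, Dgat1 -0.17 to 1.57, Dgat2 -0.080 to 2.60 and Pnpla2 -0.21 to 0.65. For both against neither, Pnpla2 was -0.046 under the flow cell block and Pparg -0.15 and -0.24 under quantile normalisation and the all-group replicate block, and -0.72 to 0.87 with a library left out. Depth limits the precision for Pparg and, in control cultures, Fabp4, each with fewer than 40 reads there.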
